A study of Mus musculus with 39 samples.

Results

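The INTACT-only regions are stretches of the mouse genome that carried an ATAC-seq peak in all 3 libraries of nuclei isolated by INTACT and in none of the 3 libraries of nuclei isolated by FANS. The peaks of the 6 lists were merged where they overlapped by at least 1 bp, which gave 170178 regions, of which 165770 were on the autosomes. Of these autosomal regions, 2213 (1.33%) met the rule. The members were chosen by peak presence in these lists, so their peak heights and the absence of FANS peaks are given as a description, without a test.

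Nuclei came from the neocortex of adult male and female Arc-creERT2 (TG/WT) mice that also carried the R26 CAG-Sun1-sfGFP-Myc reporter. Tamoxifen was injected before a social interaction test, so that Cre driven by Arc, an activity-regulated gene, put sfGFP on the nuclear membrane of cells activated in that window. FANS sorts such nuclei by their fluorescence in a flow cytometer, whereas INTACT pulls them out with magnetic beads coated with an antibody, and both groups shared genotype, tamoxifen and test. The ATAC-seq libraries were 3 technical replicates per technique from 1 biological source, so they carry no spread between animals, and the nuclear RNA-seq used below was batch 1, with 4 FANS and 4 INTACT libraries. Each RNA batch was a biological source of its own, so p-values within batch 1 measure the spread between libraries of the same source and not between independent sources.

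ATAC-seq uses a transposase that inserts sequencing adapters where DNA is not wrapped around nucleosomes, and a peak caller marks the places where insertions pile up over the local background. Peaks of neurons lie at promoters, which are often rich in GC, and at distal elements in introns and between genes. Mammalian chromosomes are mosaics of long domains that differ in GC content, and the AT-rich ones hold few genes, many of them long genes for adhesion and synaptic proteins.

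The following windows of 300 bases around the middle of 6 INTACT-only regions show what the regions look like, on the plus strand of mm10. The first 4 belong to regions with the highest peaks, then follows the promoter region of Lnp1, and the last lies in Gja1, a gap junction gene of astrocytes, and was chosen after its RNA values were seen. Capitals mark matches, on either strand, to any of the motifs TGANTCA (AP-1), TGACGTCA (CRE), CCGGAAG (ETS), GGGCGG (Sp1/KLF), CCAAT (NFY), TGCGCATGC (NRF1), TATAAA (called the TATA box below), CAGATG (E-box), TATTTATA (MEF2), TGATTGAC (Pbx) and AGGGGGC (CTCF), of which several can overlap.
Pdlim5 intron, chr3:142318245-142318544: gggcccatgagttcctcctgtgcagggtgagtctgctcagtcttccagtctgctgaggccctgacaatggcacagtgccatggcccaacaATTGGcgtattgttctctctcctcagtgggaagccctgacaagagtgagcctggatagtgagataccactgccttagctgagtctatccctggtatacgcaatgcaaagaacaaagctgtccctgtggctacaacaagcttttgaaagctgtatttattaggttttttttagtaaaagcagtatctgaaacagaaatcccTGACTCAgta
Between genes, nearest Rpl10l, chr12:66098679-66098978: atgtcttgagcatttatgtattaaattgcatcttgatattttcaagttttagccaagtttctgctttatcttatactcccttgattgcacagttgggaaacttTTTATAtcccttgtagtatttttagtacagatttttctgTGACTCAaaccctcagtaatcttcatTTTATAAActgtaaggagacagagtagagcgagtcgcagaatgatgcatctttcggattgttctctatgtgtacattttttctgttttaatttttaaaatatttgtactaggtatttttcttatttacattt
Pdlim5 intron, chr3:142294911-142295210: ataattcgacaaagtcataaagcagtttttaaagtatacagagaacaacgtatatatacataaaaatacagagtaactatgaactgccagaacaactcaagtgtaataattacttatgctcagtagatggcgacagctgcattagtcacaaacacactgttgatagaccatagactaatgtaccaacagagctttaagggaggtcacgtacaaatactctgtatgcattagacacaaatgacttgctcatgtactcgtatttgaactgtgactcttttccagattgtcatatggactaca
Between genes, nearest Ptger2, chr14:44977295-44977594: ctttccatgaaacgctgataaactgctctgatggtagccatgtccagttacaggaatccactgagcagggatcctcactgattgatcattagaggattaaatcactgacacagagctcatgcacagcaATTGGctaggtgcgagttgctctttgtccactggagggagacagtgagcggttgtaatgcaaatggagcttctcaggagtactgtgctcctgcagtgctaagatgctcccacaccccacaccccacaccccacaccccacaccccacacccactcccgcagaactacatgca
Lnp1 promoter, chr16:56928051-56928350: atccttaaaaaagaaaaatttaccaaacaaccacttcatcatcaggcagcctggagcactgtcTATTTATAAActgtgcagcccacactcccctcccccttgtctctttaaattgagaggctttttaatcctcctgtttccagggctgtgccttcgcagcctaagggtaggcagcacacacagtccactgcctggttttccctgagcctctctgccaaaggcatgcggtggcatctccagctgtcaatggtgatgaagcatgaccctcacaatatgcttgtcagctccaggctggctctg
Gja1 promoter region, chr10:56378404-56378703: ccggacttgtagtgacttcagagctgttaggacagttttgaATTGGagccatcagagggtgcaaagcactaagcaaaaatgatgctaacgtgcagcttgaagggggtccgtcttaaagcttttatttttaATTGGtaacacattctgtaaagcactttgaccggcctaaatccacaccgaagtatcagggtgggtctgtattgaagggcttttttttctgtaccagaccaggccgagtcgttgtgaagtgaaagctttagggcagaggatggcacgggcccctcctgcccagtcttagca

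These windows differed widely in base composition. The GC content was 48.0% in the first Pdlim5 window, 30.3% near Rpl10l, 35.7% in the second Pdlim5 window, 52.0% near Ptger2, 50.0% at Lnp1 and 47.7% in Gja1. The second Pdlim5 window held none of these strings, and other forms of the motifs were not searched. The window near Rpl10l held 1 AP-1 match and 3 TATA box matches. The Lnp1 promoter window held a MEF2 match that overlapped 2 TATA box matches, one on each strand.

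INTACT-only peaks were low. The fold enrichment, the height of a peak over the local background of its own library, had a median over the 2213 regions of 4.61 in INTACT replicate 1, 4.57 in replicate 2 and 4.86 in replicate 3. In the 74590 autosomal regions with a peak in all 6 lists, the medians were 8.37, 7.56 and 9.15 in the same lists and 9.05, 9.36 and 9.59 in FANS. The tallest members nonetheless were above the median of the shared peaks. Heights in the INTACT lists went together over the members, with Pearson's r of 0.601 to 0.687 and Spearman's rho of 0.517 to 0.589 for the 3 pairs of lists (n = 2213 regions, which share a biological source). Low peaks were not particular to the INTACT-only regions. The 8511 autosomal regions with a peak in all 3 FANS lists and no INTACT list had medians of 4.51, 4.68 and 4.70 in FANS replicates 1 to 3. Those with a peak in 2 INTACT lists and no FANS list had medians of 4.03 to 4.07 in INTACT.

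**Figure D1:**
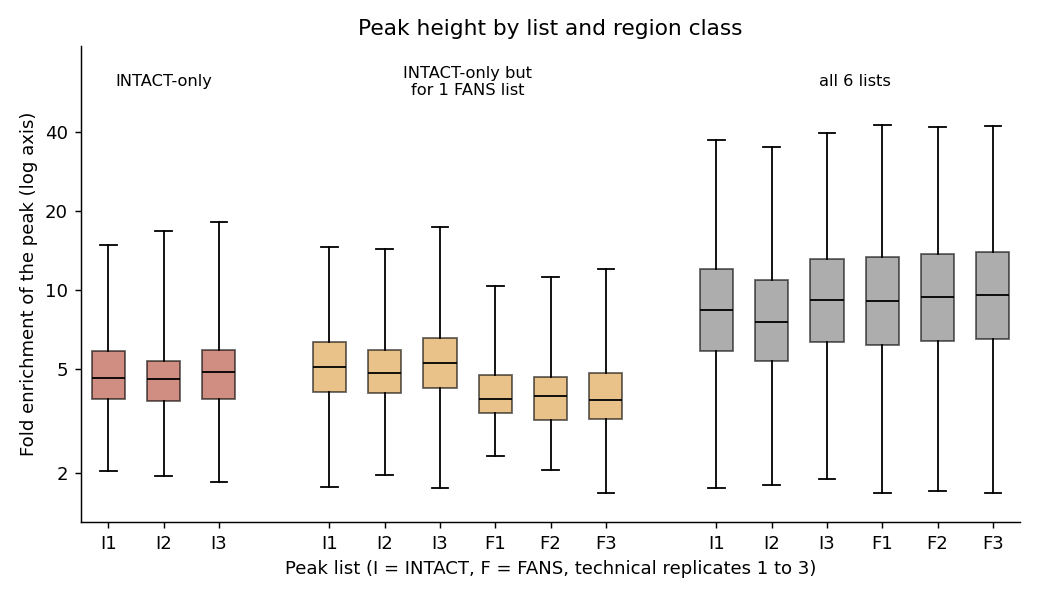
Fold enrichment of peaks (log axis) in each of the 6 lists, for INTACT-only regions, for regions that met the rule but for 1 FANS list, and for regions with a peak in all 6 lists. Boxes show the quartiles and the median, whiskers the lowest and highest peak; the INTACT-only medians of 4.57 to 4.86 lie below the medians of 7.56 to 9.59 of the shared regions.

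Near the edge of the rule, 2559 autosomal regions had peaks in all 3 INTACT lists and in 1 FANS list, and 4534 had peaks in 2 INTACT lists and no FANS list. In the former, the FANS peak had a median fold enrichment of 3.84 (lowest 1.69, highest 12.0), and the INTACT peaks had medians of 4.84 to 5.28. Inside the rule, the lowest of a region's 3 INTACT peaks had a median of 4.01 and ran from 1.85 to 14.8. Fewer required lists admit more regions by construction, and the rise in their number differed between lists. Leaving out INTACT replicate 2, which had the fewest peaks (96557, against 109829 to 127267 in the others), gave 4736 regions. Leaving out INTACT replicate 1 gave 3342, and leaving out FANS replicate 3 gave 3355. The lowest number was 2866, without FANS replicate 1.

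Of the 3 tallest regions, 2 lay in introns of Pdlim5, which encodes a PDZ and LIM domain scaffold protein. The region at chr3:142318231-142318557 had a fold enrichment of 14.8, 16.7 and 18.1 in INTACT replicates 1 to 3, and the region at chr3:142294818-142295303 had 12.7, 11.0 and 13.7. Both were far above the median member in every INTACT list. Pdlim5 RNA itself was low, at a mean normalized count of 17.2 in FANS and 30.5 in INTACT, a log2 fold change of 0.78 ± 0.23 (SE, n = 4 and 4, adjusted p = 0.0101).

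The other regions with the highest peaks mostly lay between genes. The region at chr12:66098418-66099238, 185573 bp from the start of the ribosomal protein gene Rpl10l, had 12.9, 13.2 and 13.9. The region at chr1:20311279-20311991 in an intron of Pkhd1, the gene mutated in recessive polycystic kidney disease, had 12.2, 11.0 and 10.6. The region at chr14:44977198-44977690, 10667 bp from the start of the prostaglandin E2 receptor gene Ptger2, had 13.6, 9.96 and 12.7. Those nearest to Dkk2, an inhibitor of Wnt signalling, Tcaf3, Sphkap and Apob lay 122384, 13874, 338017 and 107405 bp from the start sites. In all 4 of them every INTACT peak was at 9.67 or higher. For the tenth place, regions nearest to Cdh18 and to Ugt8a, a myelin lipid synthesis gene, were tied at a lowest height of 9.17.

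Few INTACT-only regions were at promoters. By the middle of the region, 43 (1.94%) were within 1.5 kb of a curated RefSeq start site, 23 (1.04%) in another exon, 673 (30.4%) in an intron and 1474 (66.6%) between genes. Of the regions with peaks in all 6 lists, 17.9% were at promoters and 38.4% between genes, and of all autosomal regions 10.4% and 39.6%. The classes just outside the rule were as low at promoters, with 1.68% there and 61% between genes for regions with 1 FANS peak, and 1.92% and 59% for regions with 2 INTACT peaks and no FANS peak. The median distance to the nearest start site was 108867 bp, against 30444 bp for regions in all 6 lists, and 52.2% of INTACT-only regions were more than 100 kb from any start site, against 23.4%. The classes just outside the rule were far from start sites too. Their medians were 85496 bp with 1 FANS peak and 84134 bp with 2 INTACT peaks and no FANS peak, with 46.2 and 45.4% beyond 100 kb. The opposite set, 8511 FANS-only regions with a peak in every FANS list and no INTACT list, lay closer, at a median of 22229 bp, with 6.24% at promoters and 35.0% between genes.

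**Figure D2:**
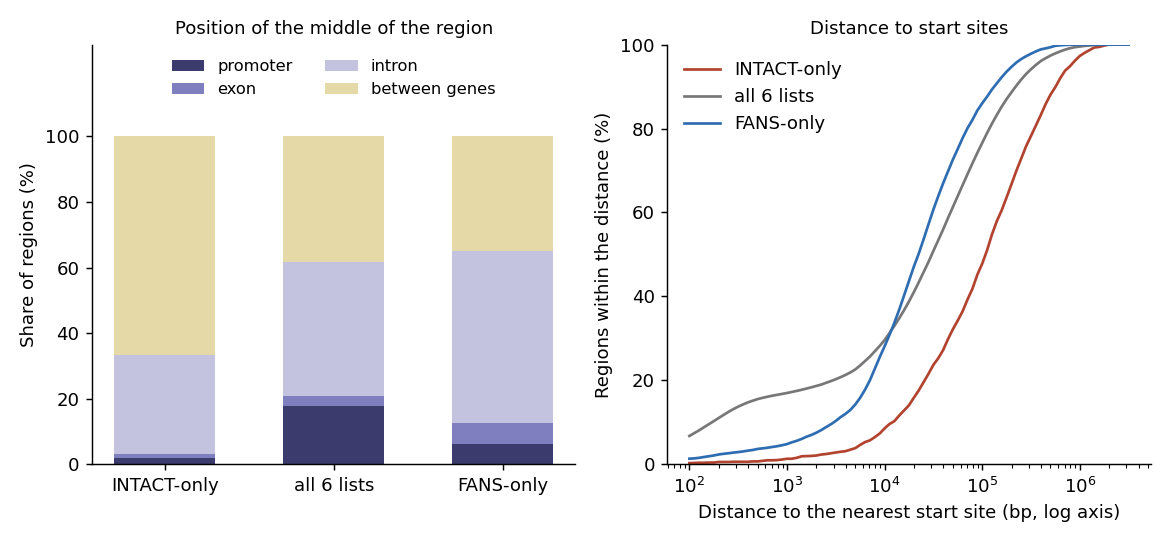
Left, share of INTACT-only regions, regions in all 6 lists and FANS-only regions at promoters, in exons, in introns and between genes. Right, cumulative share of the regions against the distance to the nearest start site (log axis); the INTACT-only curve lies to the right of both others, with medians of 108867, 30444 and 22229 bp.

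The 43 promoter regions had moderate peaks. The highest were at Gm3715 (7.38, 6.45 and 7.39 in INTACT replicates 1 to 3), at Gm31752 (6.37, 6.45 and 6.13), at Lnp1 (6.11, 5.64 and 7.39) and at Gm12052 (5.60, 4.84 and 4.65). These are mostly predicted genes without a known role. The olfactory receptor gene Olfr1012 (5.60, 4.57 and 5.70) and 2210414B05Rik (6.11, 4.57 and 6.97) were tied for the next place. The region at Gm31752 was repeat-masked over 77.6% of its length, and the region at Lnp1 over 12.2%.

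INTACT-only regions, and the classes just outside the rule, were concentrated in AT-rich stretches of the genome. The autosomes were cut into 2397 windows of 1 Mb, whose GC content was split into 5 quintiles of equal size, and each region was placed by the GC content of the 1 Mb around it. Of the 16574 merged regions in the AT-richest quintile (35.7 to 38.5% GC), 888 (5.36%) were INTACT-only. The share was 2.93% in the second quintile, 1.26% in the third, 0.273% in the fourth and 0.0313% (15 of 47946) in the GC-richest quintile. FANS-only regions went the other way, from 0.422% in the AT-richest quintile over 0.617, 1.61 and 4.06% to 12.7% in the GC-richest. Thus 40.1% of INTACT-only regions and 0.822% of FANS-only regions were in the AT-richest quintile, as were 30.3% of the regions with 1 FANS peak and 31.1% of those with 2 INTACT peaks and no FANS peak. The order held among regions between genes, where 6.84, 3.77, 1.65, 0.399 and 0.0685% were INTACT-only from the AT-richest to the GC-richest quintile, and among intronic regions, where 3.23, 2.28, 1.10, 0.210 and 0.0135% were.

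Peak heights of shared regions followed GC content as well, in opposite directions with each technique. In regions with a peak in all 6 lists, the median fold enrichment went from the AT-richest to the GC-richest quintile from 9.93 to 7.57, from 8.86 to 6.98 and from 10.7 to 8.45 in INTACT replicates 1 to 3, and from 7.90 to 10.2, from 8.05 to 10.5 and from 8.60 to 10.6 in FANS replicates 1 to 3. The GC-dependence was therefore present in regions that both techniques detected. Its part in the choice of INTACT-only regions was not tested, and technique, library preparation and sequencing of these technical replicates cannot be told apart.

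**Figure D3:**
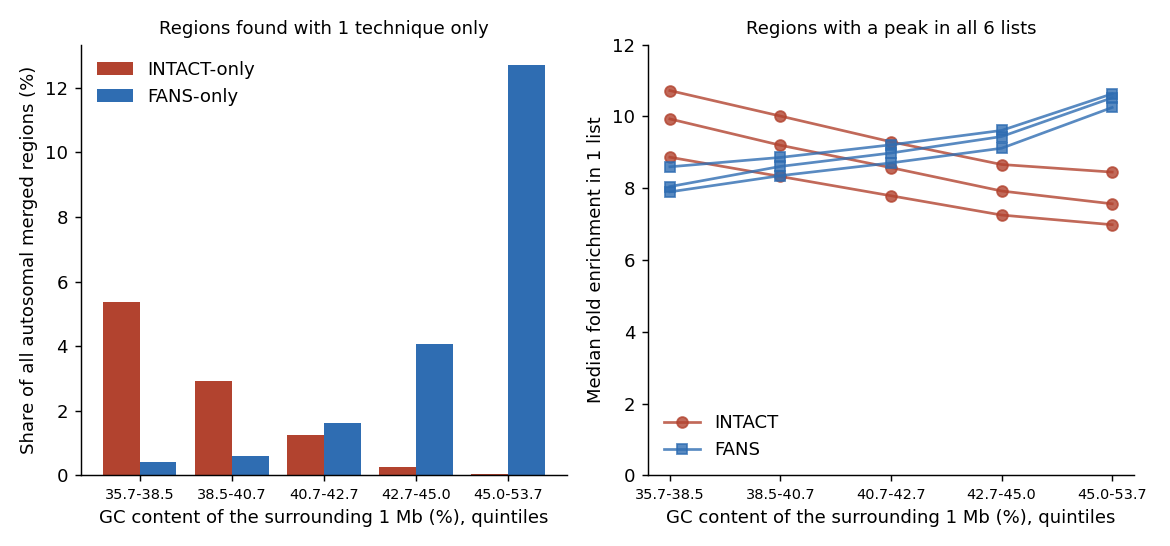
Left, share of the autosomal merged regions in each quintile of 1 Mb GC content that were INTACT-only or FANS-only. Right, median fold enrichment in each of the 6 lists of regions with a peak in all 6 lists; the 3 INTACT lines slope down and the 3 FANS lines slope up with GC content.

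The autosomes differed accordingly. INTACT-only regions made up 2.15% of the merged regions of chromosome 3 (223 regions), 1.85% of chromosome 12, 1.84% of chromosome 14 and 1.81% of chromosome 1, but 0.302% of chromosome 19 (12 regions) and 0.194% of chromosome 7 (15 regions). Chromosome 3 had the lowest mean GC content of its windows (40.45%) and chromosome 7 the second highest (43.04%). Over the 19 autosomes the share went down with GC content, with a Pearson's r of -0.836 and a Spearman's rho of -0.871, as a description of chromosomes that share the same 6 libraries. Chromosome 11 was the most GC-rich (43.82%) and still had 0.762%.

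**Figure D4:**
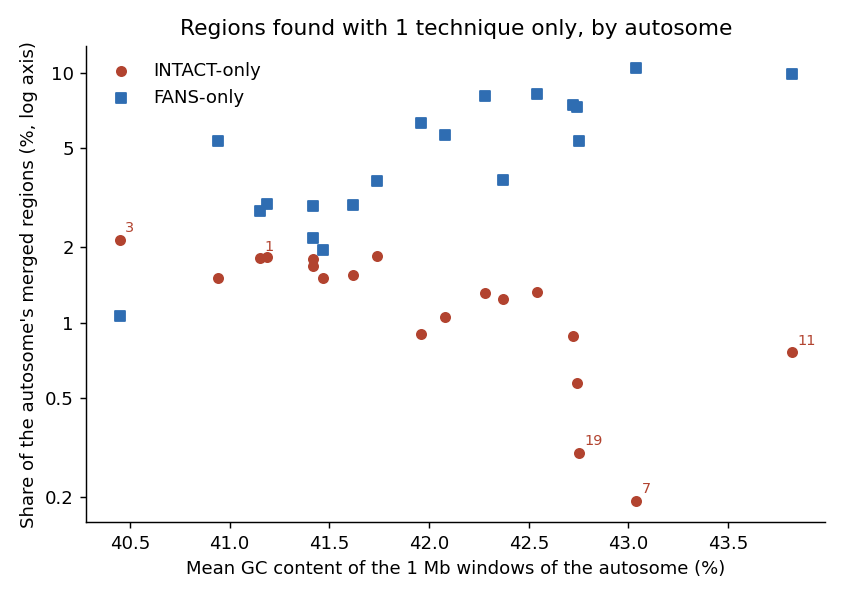
Share of each autosome's merged regions that were INTACT-only or FANS-only (log axis) against the mean GC content of its 1 Mb windows, with 5 autosomes numbered at their INTACT-only points. Chromosome 3 has 2.15% INTACT-only and 1.06% FANS-only regions, chromosome 7 has 0.194% and 10.5%.

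Along the chromosomes the regions were spread unevenly. Of the 2397 windows, 1404 (58.6%) held no INTACT-only region, 392 held 1, 432 held 2 or 3 and 169 held 4 or more. Those 169 windows held 793 of the INTACT-only regions. The median distance to the next INTACT-only region was 157861 bp, and 823 regions (37.2%) had another within 100 kb. The 2559 regions that met the rule but for 1 FANS list, a class of similar size, were spaced at 172906 bp, and 33.9% had another of the class within 100 kb. When each region was linked to the next within 100 kb, 1390 stood alone, 277 formed pairs and 63 formed triplets, and there were 11 runs of 4 regions, 6 of 5 and 1 of 6.

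The longest run held 6 regions over 279721 bp at chr3:123363229-123642949, nearest to Ndst3, a heparan sulfate modifying enzyme, Mettl14, a subunit of the RNA m6A methyltransferase, Prss12 and Snhg8. Its 1 Mb window (chr3:123000001-124000000) was also the densest, with 9 INTACT-only regions among 92 merged regions and no FANS-only region. The 6 runs of 5 regions spanned 155207 to 207135 bp. The one at chr14:111696740-111878568 lay beside Slitrk5, a synaptic adhesion gene, and the one at chr8:63109770-63268990 in Spock3, a testican proteoglycan gene. Those at chr3:73379311-73566976, chr4:19913273-20114533 and chr12:36853067-37060201 lay near 4930509J09Rik, near Atp6v0d2, Ggh and Ttpa, and near Gm29007 and Mir5099. The run at chr11:11556922-11712128, near Ikzf1, a lymphoid transcription factor gene, stood apart by its median GC content of 47.2%, against 35.7 to 41.6% in the other 6 longest runs.

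The regions were AT-rich themselves. Their median GC content was 39.6% (interquartile range 36.6 to 42.9%), against 41.0% in regions with 1 FANS peak, 41.3% in those with 2 INTACT peaks and no FANS peak, 47.3% in regions with all 6 peaks and 50.8% in FANS-only regions. They held 6.15 CpG dinucleotides per kb, against 7.19 and 7.07 in the classes just outside the rule, 13.2 in regions with all 6 peaks and 14.8 in FANS-only regions. The median length was 465 bp, against 492 bp with 1 FANS peak, 371 bp with 2 INTACT peaks and no FANS peak, 405 bp in FANS-only regions and 736 bp with all 6 peaks. Within the AT-richest quintile of the genome the gap narrowed, to 37.7% against 39.9% GC and 4.72 against 6.07 CpG per kb. Promoters were still less frequent there, at 1.01% of INTACT-only regions against 5.15% of regions with all 6 peaks, and regions between genes more frequent, at 77.0% against 60.1%. Of the regions with 1 FANS peak, 0.258% were at promoters in that quintile, and of those with 2 INTACT peaks and no FANS peak 0.923%.

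Repeats made up a slightly larger part. The median repeat-masked share was 12.1%, against 12.0% for regions with 1 FANS peak, 10.7% for those with 2 INTACT peaks and no FANS peak and 8.93% for regions with all 6 peaks, and 4.25% of INTACT-only regions were masked over 50% or more of their length, against 3.24% of those with 1 FANS peak, 5.87% of those with 2 INTACT peaks and no FANS peak and 1.39% of those with all 6. In the AT-richest quintile the medians were 12.5 and 11.5%. Only 38 of the 2213 regions (1.72%) matched another INTACT-only region over at least 100 bp at 90% identity or more, and 41 of the 2559 regions (1.60%) with 1 FANS peak matched another of their class. At that threshold, few members shared a sequence family.

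Motifs made of A and T alone were found in more, and GC-rich motifs in fewer, of the INTACT-only regions than of all autosomal regions, without a test of the differences. The classes just outside the rule did the same. The TATA box motif was found within 300 bases around the middle of 736 INTACT-only regions (33.3%), against 16.8% of all autosomal regions, and the MEF2 motif, bound by activity-dependent transcription factors of neurons, in 135 (6.10%) against 2.58%. In the regions with 1 FANS peak these motifs were in 28.1 and 5.51%, and in those with 2 INTACT peaks and no FANS peak in 28.1 and 4.94%. The GC-rich Sp1/KLF motif was found in 56 (2.53%) against 11.2%, with 2.7 and 3.04% in the classes just outside the rule. The ETS motif was in 18 (0.813%) against 2.40%. The string AGGGGGC, used for CTCF, was in 56 (2.53%) against 4.93%. Other forms of a CTCF site were not searched, so this share does not measure CTCF sites. AP-1 motifs, bound by Fos and Jun proteins, were found in 18% against 17%, NFY motifs in 36.2% against 31.4% and E-boxes in 27.9% against 30.9%. The CRE and NRF1 motifs were each found in 2 regions (0.0904%), against 0.496 and 0.39%, and the Pbx motif in 13 (0.587%) against 0.512%. Within the AT-richest quintile the TATA motif was in 38.7% of INTACT-only and 30.0% of all regions, the MEF2 motif in 6.42 and 5.09%, the AP-1 motif in 18.7 and 20.3% and the E-box in 26.5 and 32.8%. The gap was thus smaller for the TATA motif and larger for the E-box than over all autosomal regions. AP-1 and the string AGGGGGC (1.80 against 1.69%) changed sides. NRF1 did so too (0.113 against 0.0422%), but only 2 INTACT-only regions over all autosomes held it, too few for a comparison. A match is a description of letters and not a bound site.

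Each region was assigned to the gene with the nearest start site, which gave 1366 genes, of which 903 were nearest to 1 region and 206 to 3 or more. Slitrk5 was nearest to 9 regions. Cntnap5b, a neurexin-like adhesion gene, and Gm20268 were nearest to 8 each. Cdh11, a cadherin, Rapgef2, an activator of Rap GTPases, Spock3, Stxbp6, a regulator of vesicle fusion, and 4930590L20Rik were nearest to 7 each, and 1700017L05Rik to 6.

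Adhesion genes were nearest to larger shares of INTACT-only regions than of all autosomal regions, and the shares lay closer together in the AT-richest quintile. None of these differences was tested. Teneurin, latrophilin and contactin family genes were nearest to 38 regions (1.72%, 11 genes), against 0.565% of all autosomal regions, and cadherins to 33 (1.49%, 9 genes), against 0.489%. The classes just outside the rule had raised shares too, of 1.25% and 1.17% for regions with 1 FANS peak and of 1.54% and 1.10% for those with 2 INTACT peaks and no FANS peak. In the AT-richest quintile the shares were 2.93 against 2.95% and 2.82 against 2.65%. Protocadherins were nearest to 16 regions (0.723 against 0.273%, with 0.430 and 0.684% in those classes), and to a smaller share than all regions in the AT-richest quintile (1.69 against 2.05%). Olfactory receptor genes were nearest to 19 regions (0.859 against 0.305%, with 0.664 and 0.794% in the classes just outside the rule), and to 1.24 against 0.597% in that quintile. Zfp zinc finger genes were nearest to 6 regions (0.271 against 0.933%) and potassium channel genes to 10 (0.452 against 0.933%). Sox genes and snoRNAs were nearest to none, but they were rare among all autosomal regions as well (0.132 and 0.125%).

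Nuclear RNA of the nearest genes was compared in batch 1, whose libraries had 4853224 to 6066759 reads on genes with FANS and 8621143 to 11028713 with INTACT. RNA came from other nuclei than the ATAC-seq, and fewer cells of a type and less RNA per cell cannot be told apart in such bulk samples. Of the 1366 genes, 1228 matched the table and 759 passed the filter on low genes (mean over the 8 libraries of 5 or more normalized counts), a share (61.8%) close to that of the whole table (61.9%, 15114 of 24421). A gene was called at an adjusted p under 0.05 (limma, Benjamini-Hochberg) and a change of at least 1.5-fold. Of the 759, 40 (5.27%) were enriched in INTACT, against 4.03% of all genes tested, and 32 (4.22%) were depleted, against 3.94%. Their median log2 fold change was -0.03, against 0.01 for all genes, and 345 of 759 were higher in INTACT. These shares are near the background and give no result about the neighbours as a group. For genes nearest to FANS-only regions, 3.04% were enriched and 5.41% depleted, with a median of -0.05.

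The share of called genes varied with how a region was tied to its gene, beside 4.03% enriched and 3.94% depleted of all genes tested. Regions within 10 kb of the start site gave 86 tested genes, of which 4 (4.65%) were enriched and 3 (3.49%) depleted, with a median of -0.11. The 410 tested genes whose body held a region included 19 enriched (4.63%) and 10 depleted (2.44%) genes and had a median of -0.09. Genes nearest to 3 or more regions had 9 enriched (7.14%) and 5 depleted (3.97%) among 126 tested. The nearest genes were long, with a median of 75120 bp against 21240 bp for other tested autosomal genes, and long genes were lower in INTACT overall: the median log2 fold change went from 0.21 in the shortest quintile to -0.13 in the longest. From the shortest to the longest quintile, 10.4, 7.89, 7.69, 3.76 and 3.84% of the genes nearest to INTACT-only regions were enriched, against 9.82, 4.22, 2.67, 1.56 and 1.08% of the others. Depleted were 13.4, 3.95, 2.20, 4.51 and 2.81%, against 6.11, 3.05, 2.82, 3.08 and 4.35%, from 67 nearest genes in the shortest and 391 in the longest quintile. In the AT-richest quintile of the genome, 8.08 against 3.54% were enriched and 9.09 against 13.1% depleted, for 198 nearest and 198 other genes. These differences between gene groups were not tested.

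The enriched and depleted neighbours were of different kinds. By the symbols of the deposited table, none of the 40 enriched genes was named as a predicted or antisense transcript (Gm, Rik, Mir or os), whereas 18 of the 32 depleted ones were, with Tex47 among them under its older Rik symbol. The same held for all genes called, where such symbols made up 2.96% of the 609 enriched and 45.8% of the 596 depleted genes. FANS and INTACT libraries did not overlap for 32 of the 40 enriched (80%) and 29 of the 32 depleted genes (90.6%), against 85.9% of all enriched and 85.9% of all depleted genes. Of all genes tested, 17.1% were higher and 16.5% lower in INTACT without overlap, and called genes had to differ, so these shares say nothing particular of the neighbours.

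The 5 most enriched neighbours that averaged 20 or more normalized counts were Gja1, Aqp4, Dio2, Synpr and Gpr37. Gja1, whose promoter region lay 1253 bp from the start site and is printed above, had normalized counts of 14.2, 20.8, 8.18 and 15.3 in FANS replicates 1 to 4 and of 63.1, 65.8, 55.1 and 62.8 in INTACT replicates 1 to 4. The groups did not overlap, with a log2 fold change of 2.07 ± 0.24 (SE, adjusted p = 2.29e-07). Its region was 1228 bp long, 53.0% GC in a 1 Mb stretch of 39.4%, and had a fold enrichment of 3.82, 5.71 and 4.22 in the INTACT lists. Aqp4, the water channel of astrocyte endfeet, had 16.7, 9.81, 10.9 and 7.64 in FANS and 43.3, 39.0, 31.2 and 42.3 in INTACT. Again every INTACT library was above every FANS library (log2 fold change 1.74 ± 0.26, adjusted p = 1.06e-05), and its region lay 130145 bp away in an intron of Chst9. Gja1 and Aqp4 are in the list of 18 astrocyte markers, of which 10 were enriched over all genes, and the other listed gene near a region, Slc4a4, differed by -0.09 ± 0.05 and was not called. Dio2, which converts thyroxine to its active form, had 19.3, 9.81, 8.18 and 9.17 in FANS and 31.1, 28.3, 41.2 and 25.1 in INTACT. This was a change of 1.42 ± 0.29 (adjusted p = 0.000357), with both of its regions over 100 kb away.

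The others were Synpr, a synaptic vesicle protein gene, and Gpr37, a receptor of oligodendrocytes. Synpr had 126, 125, 65.4 and 125 in FANS and 218, 207, 216 and 208 in INTACT (log2 fold change 0.98 ± 0.15, adjusted p = 9.18e-06). Gpr37, nearest to 4 regions, had 144, 188, 123 and 164 in FANS and 295, 290, 312 and 298 in INTACT (0.96 ± 0.10, adjusted p = 7.01e-08). Neither gene's groups overlapped, although FANS replicate 3 was low for Synpr.

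The 5 most depleted neighbours of that level were Nrg3os, 4930509J09Rik, Gm5415, Acot10 and Tex47. Nrg3os, antisense to the neuregulin gene Nrg3, had 341, 378, 472 and 451 in FANS and 129, 109, 106 and 110 in INTACT (log2 fold change -1.84 ± 0.10, adjusted p = 1.46e-12), with 4 regions all more than 500 kb from its start. 4930509J09Rik, the gene with the start site nearest to the run of 5 regions on chromosome 3, had 45.0, 69.9, 64.0 and 64.2 in FANS and 26.8, 9.94, 16.6 and 13.9 in INTACT (-1.86 ± 0.25, adjusted p = 1.95e-06). The closest of these regions lay 23809 bp from its start site and 3 were in its introns, whereas all 5 were in introns of Gm20754, a noncoding gene on the other strand that was looked up after the values of the run were seen. Gm20754 had 88.8, 92.0, 92.7 and 97.8 in FANS and 58.0, 73.4, 61.8 and 61.5 in INTACT, without overlap but under 1.5-fold (-0.54 ± 0.13, adjusted p = 0.00245). RNA of both genes was thus lower in INTACT at this locus, where 5 regions within 187666 bp had INTACT peaks and no FANS peak. Gm5415 (-1.68 ± 0.14, adjusted p = 1.60e-09), Acot10, an acyl-CoA thioesterase gene (-1.79 ± 0.17, adjusted p = 6.82e-09), and Tex47 (-1.67 ± 0.26, adjusted p = 1.59e-05) were also lower in all INTACT libraries than in any FANS library. The nearest regions lay far from their start sites, at 107859, 530560 and 628603 bp. Reads of Nrg3os and of 4930509J09Rik cannot be separated from those of an overlapping gene on the other strand without knowledge of the strand setting.

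**Figure D5:**
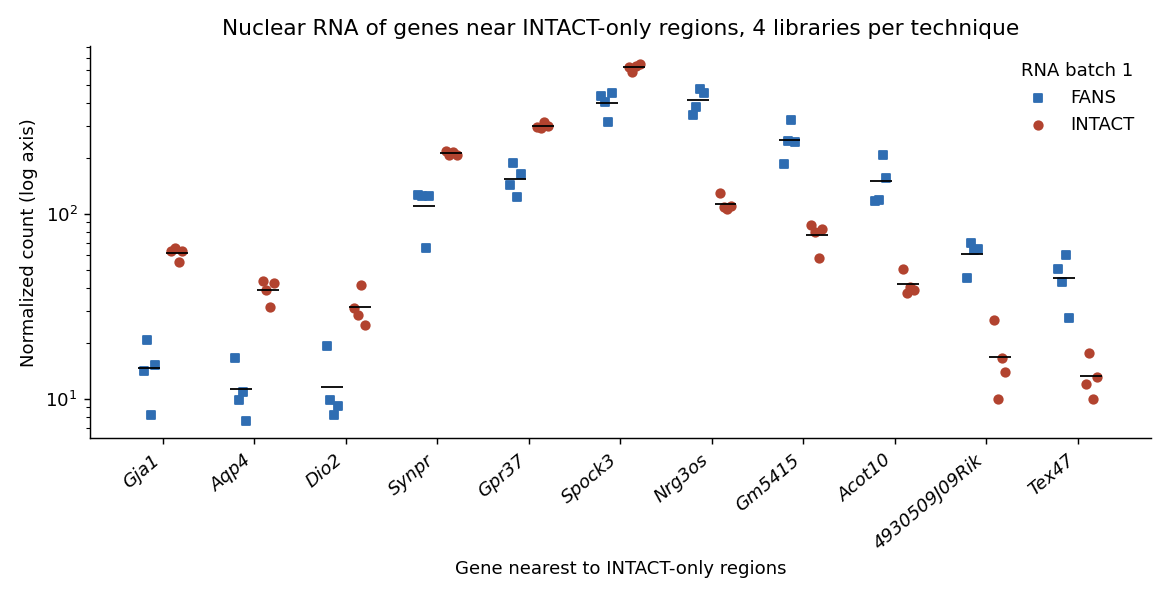
Normalized counts (log axis) in the 4 FANS and 4 INTACT libraries of batch 1 for the most enriched and most depleted genes nearest to INTACT-only regions, and for Spock3; black bars are means. For all 11 genes the FANS and INTACT libraries do not overlap.

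Of the 10 genes nearest to the most regions, 1 was called. Spock3, with 7 regions, had 436, 403, 313 and 448 in FANS and 625, 585, 627 and 648 in INTACT, a log2 fold change of 0.65 ± 0.08 (adjusted p = 1.15e-06). Without FANS replicate 3 the change was 0.53 and under 1.5-fold. Slitrk5 (1287, 1321, 1235 and 1273 in FANS, 1417, 1302, 1343 and 1326 in INTACT) differed by 0.07 ± 0.05, with overlapping groups and an adjusted p of 0.245. Cntnap5b (-0.02 ± 0.07), Cdh11 (0.26 ± 0.05), Rapgef2 (0.07 ± 0.05), Stxbp6 (0.08 ± 0.09) and 4930590L20Rik (-0.40 ± 0.23) were not called either. Gm20268 and 1700017L05Rik were at 0 in all 8 libraries. Of the tested genes named here, those other than Spock3 differed by less than 1.5-fold, with an adjusted p of 0.000129 for Cdh11.

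The marker lists were counted in batch 1, where 4.03% of all genes tested were enriched and 3.94% depleted, with a median log2 fold change of 0.01. Of 18 astrocyte markers, 10 were enriched in INTACT and none depleted, with a summed normalized count of 7599 to 8370 in FANS and 9300 to 9561 in INTACT. Of 21 oligodendrocyte lineage markers, 13 were enriched and none depleted (7856 to 9608 against 12490 to 13190). Of 13 excitatory neuron markers none was called (12440 to 12670 against 11810 to 12450), and their RNA was present in both groups. The paper holds that most labelled neocortical nuclei likely come from such neurons, which was not tested here. Inhibitory neuron markers had 4 enriched and 1 depleted of 10 tested (446 to 570 against 580 to 644), microglia 1 and 1 of 7 (305 to 397 against 337 to 366), vascular cells 1 and 1 of 7 (114 to 185 against 155 to 176), and activity-regulated genes 2 and 0 of 20 (9700 to 10150 against 9659 to 9929). The summed levels of the groups did not overlap for astrocytes, the oligodendrocyte lineage and inhibitory neurons, and overlapped for the other lists. The median log2 fold change was 0.89 for astrocyte, 0.62 for oligodendrocyte lineage, 0.36 for inhibitory neuron, 0.29 for vascular, 0.12 for microglia, 0.10 for activity-regulated and -0.11 for excitatory neuron genes. No marker of these lists was at 0 in all libraries, and their part in the results on peaks was not tested.

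By nearest start site, INTACT-only regions were assigned to 12 of the 115 genes of these lists (10.4%, against 5.47% of the curated autosomal genes). They were the astrocyte genes Gja1, Aqp4 and Slc4a4, the inhibitory neuron genes Erbb4 and Npy, the vascular genes Tek, Cdh5 and Col1a2, the myelin gene Ugt8a, the excitatory neuron gene Tbr1 and the activity-regulated genes Bdnf and Inhba. No microglia gene was among them. Their nearest regions lay from 1253 bp (Gja1) to 193000 bp (Erbb4) from the start site. Cdh5 and Col1a2 did not pass the filter on low genes and were not tested. Npy, a neuropeptide of interneurons, had 10.3, 0, 5.45 and 3.06 in FANS and 20.8, 12.2, 27.2 and 15.2 in INTACT (log2 fold change 2.20 ± 0.53, adjusted p = 0.00178). At these low counts the size of the change was unsteady. It was 1.52 without FANS replicate 2, the library at 0, and 1.37 with a pseudocount of 5, and Npy was called in both. Tek, an endothelial receptor, had 43.7, 38.0, 66.8 and 65.7 in FANS and 33.7, 39.0, 28.6 and 24.5 in INTACT (-0.73 ± 0.21, adjusted p = 0.00853), with groups that overlapped. Ugt8a differed by 0.58 ± 0.06, just under 1.5-fold, and Erbb4 (0.28 ± 0.12), Tbr1 (-0.13 ± 0.06), Bdnf (0.13 ± 0.07) and Inhba (-0.11 ± 0.13) were not called.

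Arc and the mast cell protease gene Prss34 were nearest to no INTACT-only region. Arc RNA was 1569, 1550, 1408 and 1365 in FANS and 1722, 1630, 1662 and 1747 in INTACT (log2 fold change 0.20 ± 0.05), under 1.5-fold. The glycolysis gene Gapdh was nearest to 1 region, at chr6:125157235-125157501 in an intron of Iffo1, with a fold enrichment of 4.73, 5.21 and 4.86. It was one of the 15 regions in the GC-richest quintile, at 55.4% GC with 64 start sites in its 1 Mb. Gapdh RNA was 275, 266, 236 and 228 in FANS and 388, 337, 405 and 358 in INTACT (0.57 ± 0.08, adjusted p = 5.91e-06), just under 1.5-fold. Sucnr1, the succinate receptor gene, was nearest to 1 region 86364 bp away and was at 0 in every library of batch 1.

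In batches 2 and 3, none of the 72 called neighbours was called. The paper reports lower RNA integrity numbers for these batches, and calls such numbers unreliable for nuclear RNA of low input. In batches 2 and 3, limma called 19 of 14876 and 52 of 14440 genes. Of the enriched neighbours that were tested, 32 of 38 (84.2%) were also higher in INTACT in batch 2 and 14 of 39 (35.9%) in batch 3, against 84.0 and 46.5% of all genes enriched in batch 1. Of the depleted ones, 27 of 32 (84.4%) were also lower in batch 2 and 13 of 32 (40.6%) in batch 3, against 78.9 and 33.4% of all depleted genes. Of all genes tested in batch 1, 49.9% were higher in INTACT in batch 2 and 48.8% in batch 3. Of all tested genes nearest to INTACT-only regions, 44.2% were higher in batch 2 and 31.1% in batch 3. The shares of these neighbours that were lower were 55.8 and 68.9%, against 50.1 and 51.2% of all genes. Gja1 differed by 0.84 ± 0.34 in batch 2 (adjusted p = 0.212) and by 0.23 ± 0.28 in batch 3 (adjusted p = 0.776), and Nrg3os by -0.24 ± 0.11 (adjusted p = 0.286) and 0.07 ± 0.10 (adjusted p = 0.814). The difference between batches was not tested.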

How the data were processed

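The libraries were those of the technique comparison: 6 ATAC-seq libraries and the nuclear RNA-seq of 3 batches, of which 7 FANS and 4 INTACT libraries of batch 2 and 7 and 5 of batch 3 were used. The authors aligned ATAC-seq reads with Bowtie2 to mm10, removed duplicates and called peaks per library with MACS2. The parameters of the calling are not given in the sources used here. The deposited lists hold a score, which is the q-value's -log10 times 10, a fold enrichment, which is the ratio of a peak's summit to its local background, and -log10 p and -log10 q. ATAC-seq read depth is unknown. The deposited RNA values are a signal per gene: the authors counted reads with HTSeq after STAR alignment and divided them by a DESeq size factor. After that scaling was undone with a step found for each library, 100% of the batch 1 values were whole reads (tolerance 0.1 read).

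Peaks were merged in Python 3.11.15. Genes and start sites were the 45756 curated RefSeq transcripts of GRCm38.p6, the patch release of the same build as mm10, and masked bases are those in lower case in its FASTA, without repeat classes. GC content was read with pysam 0.24.0 and similarity with blastn 2.17.0. Of 24421 table symbols, 23165 matched directly and 1095 by an older symbol. RNA was compared with limma 3.58.1 (lmFit, eBayes with trend, R 4.3.3) on log2(normalized count + 1), the scale of all fold changes, with edgeR 4.0.16 and DESeq2 1.42.0 as alternatives. The 3 RNA batches came from 3 biological sources per the study's methods, so p-values within a batch measure the spread between libraries of 1 source. The rule named the 10 regions with the highest lowest peak, 5 such promoters, the longest runs, the 10 genes with most regions (1 of them is not reported here), the 5 neighbours with the largest rise and the 5 with the largest fall at a mean of 20 or more, called neighbours in the marker lists, and Arc, Gapdh, Sucnr1 and Prss34; other genes were chosen after their values were seen. The members and lists were chosen with earlier results of these data known.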

Additional observations from a re-analysis of the deposited data

Results flagged for a closer look

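On the X chromosome, which the rule leaves out, 162 of 4386 merged regions (3.69%) had a peak in all 3 INTACT lists and in no FANS list, and 9 (0.205%) had the opposite pattern. On the autosomes the shares were 1.33% and 5.13%. The 162 regions come from lists of 1 biological source, and this difference was not tested.

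In 4 of 44 groups of 4 libraries tested for the named genes, 1 library stood apart by Dixon's criterion, which flags about 1 in 20 groups by chance. Rapgef2 had 1447 normalized counts in INTACT replicate 3, against 1342 to 1344 in the others. Dio2 had 19.3 in FANS replicate 1, Synpr 65.4 in FANS replicate 3, and Nrg3os 129 in INTACT replicate 1. The calls of Dio2, Synpr and Nrg3os were kept when any single library was left out.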

How the results depend on the processing

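The number of INTACT-only regions was 2096 to 2226 when peaks had to overlap by 50 bp, when a -log10 q of at least 2 was required in all or only in INTACT lists, or when no FANS peak was allowed within 1 kb, and it was 2866 to 4736 with 1 ATAC-seq library left out. Over those leave-outs, 1.73 to 2.15% of regions were at promoters, 62.5 to 65.6% between genes, the median GC content was 39.6 to 40.7%, the median masked share 10.7 to 12.7% and the share with another region within 100 kb 41.3 to 53.8%. Fewer required lists admit more regions by construction. A promoter window of 1 kb gave 1.31%, neighbours within 50 kb 22.2%, and windows of 300 bp a median GC content of 39.0% and a masked share of 11.3%. For RNA, regions within 10 kb gave 4 enriched and 3 depleted genes with a median log2 fold change of -0.109, regions within 100 kb gave 26 and 17, and genes whose body held the region gave 19 and 10 with a median of -0.0856, from fewer genes. With 1 RNA library left out, 29 to 41 genes were enriched and 26 to 37 depleted, with medians of -0.0419 to -0.022. The replicate block gave 40 and 31. It is no pairing, since same-numbered libraries did not deviate together (correlations of -0.0704 to -0.0103). EdgeR gave 40 and 36, DESeq2 36 and 32, and the pseudocount of 5, no filter, 75th percentile scaling and quantile normalization gave 37 to 42 and 29 to 37. Of the named genes, Spock3 lost its call without FANS replicate 3, and Gapdh passed 1.5-fold when FANS replicate 1 or 2 or INTACT replicate 2 was left out. The lists without read counts leave weak FANS signal below the peak threshold undetected.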
